A study of Mus musculus with 6 samples.

Results

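The acid-sensing ion channels (ASICs) are the 4 genes *Asic1*, *Asic2*, *Asic3* and *Asic4*, out of 25239 genes listed in the RNA-seq counts of the mouse hippocampus. They were chosen by name as a family because *Asic4* was among the clearest rises in CPM (counts scaled to a fixed library size) between the genotypes, so every difference between the genotypes within the family is given as a description and carries no test. RNA came from hippocampi of male C57BL/6 mice aged 6 to 8 weeks, 3 of them wild type (WT, Ube3a m+/p+) and 3 of them Ube3a m-/p+, with 1 library per mouse and no treatment named. They are called WT and m-/p+ mice from here on, and values listed for mice 1 to 3 are in that order. Ube3a m-/p+ mice model Angelman syndrome: they carry no functional maternal copy of *Ube3a*, which encodes a ubiquitin ligase, and keep the paternal copy, which mature neurons largely silence. Other cell types can still use that copy, and the mutation is present in the whole animal from conception.

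ASICs are sodium-permeable channels of the ENaC/degenerin family that open when the fluid outside the cell turns acid. Each channel is a trimer, made of like or of mixed subunits. *Asic1* encodes the subunit that carries most of the acid-evoked current of central neurons, and *Asic2* encodes a partner that tunes the current and helps to place it at synapses. *Asic3* is best known from sensory neurons, where it takes part in acid-evoked pain. *Asic4* encodes a subunit that gives no acid-evoked current of its own in standard expression systems and can lower the amount of other ASICs at the cell surface. In brain, *Asic4* is known from some interneurons and from oligodendrocyte precursors.

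The coding sequences of the 4 genes were compared first, because reads that fit more than 1 gene could pass counts between them. Aligned coding bases were identical at 63.3% between *Asic1* and *Asic2*, 61.0% between *Asic1* and *Asic4*, 60% between *Asic1* and *Asic3*, 57.7% between *Asic2* and *Asic3*, 57.3% between *Asic3* and *Asic4*, and 55.7% between *Asic2* and *Asic4*. The longest exact coding match of *Asic4* with another family member was a run of 22 bases, printed to show how little exact coding sequence it shares with them, CCAGACTTTTGTGTCCTGCCAG, also present in *Asic3* (chr1:75469454-75469475 and chr5:24415907-24415928 of GRCm38, both on the plus strand, from GENCODE M21 transcripts). The coding sequence of *Asic4* held no 25-base word of *Asic1*, *Asic2* or *Asic3*; untranslated parts and matches with mismatches were not compared.

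The counted reads on genes per WT mouse numbered 7293272 to 8675252, and those per m-/p+ mouse 8871052 to 11314409. No library was a copy of another, as the chi-square per degree of freedom between any pair of mice was at least 3.92. Levels below are CPM scaled by TMM, and fold changes are log2 values from edgeR's quasi-likelihood fit to the 14445 genes that passed its filter on low counts. A gene was called where its adjusted p was below 0.05 and it differed more than 1.2-fold. By this rule 290 genes, 2.01% of those tested, were called, with 147 (1.02%) higher and 143 (0.99%) lower in m-/p+ mice. Over all tested genes the median log2 fold change was 0.0025.

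*Ube3a*, the targeted gene, had 103, 140 and 149 CPM in WT mice 1 to 3 and 97.0, 83.3 and 81.9 CPM in m-/p+ mice 1 to 3. Every m-/p+ mouse lay below every WT mouse, and the log2 fold change was -0.58 (SE 0.12, adjusted p = 0.0363, edgeR). The labels and the targeted gene therefore point the same way in the order of the 6 mice. The mice numbered 1 were close, with 879 counts in WT and 859 in m-/p+, so this check says little about them.

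*Asic4* (ENSMUSG00000033007, chr1:75450436-75474343, plus strand) had 48, 36 and 44 counts in WT mice 1 to 3 and 112, 121 and 121 counts in m-/p+ mice 1 to 3. This gave 5.65, 4.14 and 5.97 CPM in WT mice and 12.6, 10.7 and 11.7 CPM in m-/p+ mice. All 3 m-/p+ mice were above all 3 WT mice, and the lowest of them was 1.80 times the highest WT mouse. The group levels were 5.25 ± 0.976 CPM (SD, n = 3) and 11.7 ± 0.949 CPM (SD, n = 3), with 2.23 as their ratio and a log2 fold change of 1.16 (SE 0.19). Exact Poisson 95% intervals ran from 2.90 to 8.01 CPM over the WT libraries and from 8.92 to 15.2 CPM over the m-/p+ libraries. These intervals cover counting error only and do not meet.

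*Asic4* was the only family member called. Its log2 fold change was the 8th largest of the 147 called rises and the 33rd largest of all tested genes. Since the family was selected on this value, the call is a restatement of the choice. Non-overlap in this direction was common, with all 3 m-/p+ mice above all 3 WT mice in 1718 genes (11.9% of those tested). With single mice left out, *Asic4* had a log2 fold change of 1.22 without WT mouse 1 and 1.11 without m-/p+ mouse 1, and the call was kept. It was 1.01 without WT mouse 2, 1.25 without WT mouse 3, 1.22 without m-/p+ mouse 2 and 1.16 without m-/p+ mouse 3, and the call was lost, with at most 2 genes of the whole table called in each of these 4 fits. In bulk tissue, a change in the number of cells that express a gene and a change in RNA per cell cannot be told apart.

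*Asic1* (ENSMUSG00000023017, chr15:99670368-99701130, plus strand) had 33.1, 35.3 and 33.0 CPM in WT mice 1 to 3 and 34.7, 42.0 and 38.0 CPM in m-/p+ mice 1 to 3. m-/p+ mouse 1 lay inside the WT range and the other two lay above it. The group levels were 33.8 ± 1.33 CPM (SD, n = 3) and 38.2 ± 3.68 CPM (SD, n = 3), and the log2 fold change was 0.18 (SE 0.11), which was not called.

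*Asic2* (ENSMUSG00000020704, chr11:80880169-81968457, minus strand), a gene that spans 1088289 bp, had 61.6, 63.5 and 54.5 CPM in WT mice 1 to 3 and 57.1, 66.4 and 76.0 CPM in m-/p+ mice 1 to 3. The groups overlapped, with the highest values in m-/p+ mice 2 and 3 and the lowest in WT mouse 3. The group levels were 59.9 ± 4.73 CPM (SD, n = 3) and 66.5 ± 9.43 CPM (SD, n = 3), and the log2 fold change was 0.15 (SE 0.11), which was not called.

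*Asic3* (ENSMUSG00000038276, chr5:24413392-24417835, plus strand) had 8, 3 and 3 counts in WT mice 1 to 3 and 4, 16 and 3 counts in m-/p+ mice 1 to 3, or 0.290 to 1.42 CPM. It was the member that did not pass the filter on low counts, so 3 of the 4 genes were tested. Of its 37 counts 16 came from m-/p+ mouse 2, and without that library 7 counts remained in m-/p+ mice against 14 in WT mice. A difference between the genotypes was not detectable at this depth.

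**Figure D1:**
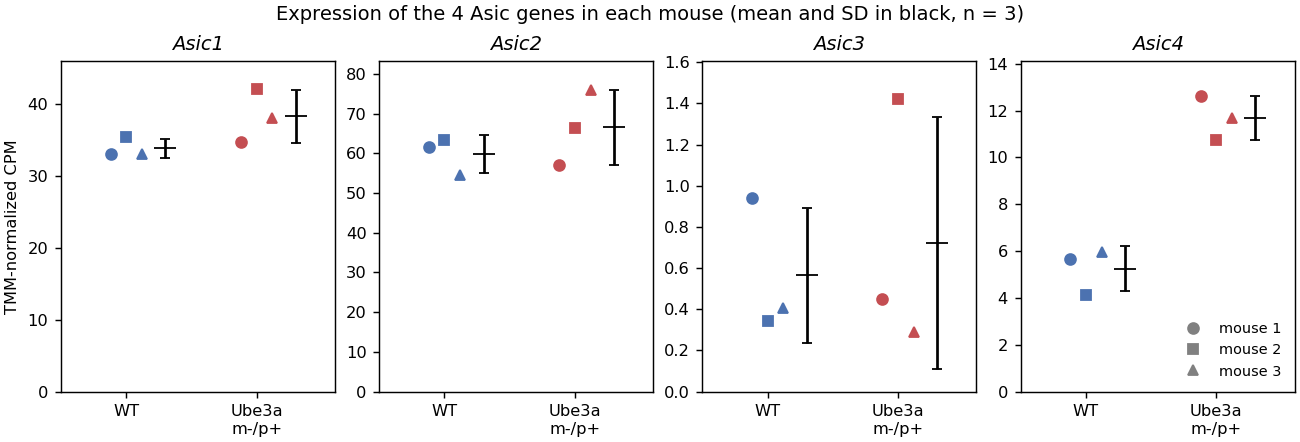
Expression of the 4 *Asic* genes in each mouse, in TMM-normalized CPM on the vertical axis (a separate scale from 0 for each gene), for WT mice (blue) and m-/p+ mice (red). Symbols mark mice 1 to 3 and black bars the mean and SD (n = 3); the groups are apart for *Asic4*, at 4.14 to 5.97 against 10.7 to 12.6 CPM, and overlap for the other 3 genes.

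*Asic4* was also compared as a ratio of counts inside each library, which does not depend on the scaling of libraries. For every 100 counts on *Asic1* there were 17.1, 11.7 and 18.1 counts on *Asic4* in WT mice 1 to 3, and 36.5, 25.6 and 30.7 in m-/p+ mice 1 to 3. For every 100 counts on *Asic2* there were 9.16, 6.52 and 10.9 counts on *Asic4* in WT mice and 22.1, 16.2 and 15.4 in m-/p+ mice. The groups did not overlap in either ratio, but both reuse the *Asic4* counts that chose the family and so restate that choice. The ratio of *Asic1* to *Asic2* overlapped, at 53.6, 55.6 and 60.4 counts on *Asic1* per 100 on *Asic2* in WT mice and 60.7, 63.2 and 50.1 in m-/p+ mice.

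The order of the members by level did not enter their choice. It was read from the 6 mice, and each step was then tested in the same mice. TMM-normalized CPM were divided by the length of the longest annotated transcript in kb (3.436 for *Asic2*, 4.114 for *Asic1*, 2.667 for *Asic4* and 2.211 for *Asic3*). *Asic2* was the highest, at 18.4 ± 2.21 CPM per kb (SD, n = 6, both genotypes together), with a range of 15.9 to 22.1. *Asic1* followed at 8.75 ± 0.846 (range 8.01 to 10.2), *Asic4* at 3.18 ± 1.36 (range 1.55 to 4.74) and *Asic3* at 0.291 ± 0.202 (range 0.131 to 0.643). The partner subunit *Asic2* thus had the most transcript per length in every mouse, and the sensory subunit *Asic3* the least.

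Each step in this order held in 6 of 6 mice. *Asic2* was 2.10-fold above *Asic1* (mean log2 difference 1.07, SD 0.13), *Asic1* 2.99-fold above *Asic4* (1.58, SD 0.61) and *Asic4* 11.96-fold above *Asic3* (3.58, SD 1.06). Each of the 3 steps had p = 0.03125 by an exact sign-flip permutation test, two-sided, before and after Benjamini-Hochberg adjustment, which is the smallest p that 6 mice allow. Since the order was read from the same mice, this p describes how steadily each step held and is no independent test of the order. The order was the same with the union of exons or the coding sequence as the length.

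The share of *Asic4* in the family, which rests on the same counts that chose it, was higher in each m-/p+ mouse than in any WT mouse. *Asic4* made up 7.42%, 5.40% and 8.51% of the summed CPM per kb of the 4 genes in WT mice 1 to 3, and 15.8%, 11.8% and 12.2% in m-/p+ mice 1 to 3. *Asic1* made up 25.8% to 30.5% and *Asic2* 55.4% to 64.2% across the 6 mice.

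**Figure D2:**
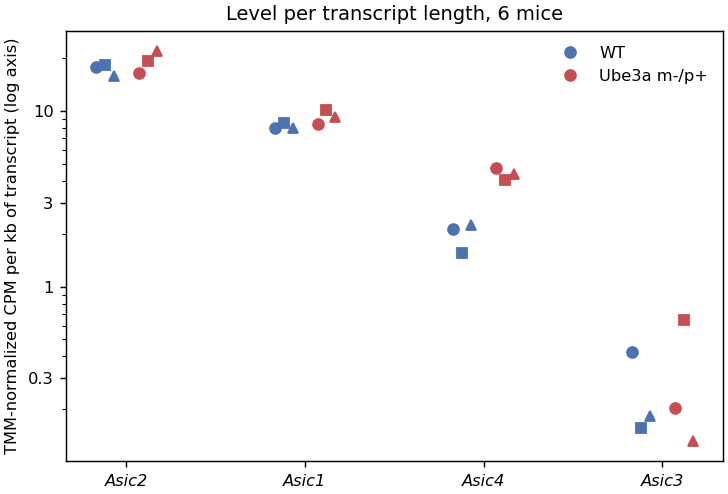
Level of the 4 *Asic* genes per transcript length in the 6 mice, in TMM-normalized CPM per kb of the longest transcript on a log axis, with a circle, a square and a triangle for mice 1 to 3 of each genotype. *Asic2* lies highest (15.9 to 22.1), then *Asic1*, *Asic4* and *Asic3*, and WT and m-/p+ mice are apart within *Asic4*.

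The libraries differed in how expression related to the GC content of transcripts. Across the 14201 tested genes with an annotated transcript, which are not independent replicates, GC content was set against the deviation of a library from the mean of the 6. Spearman's rho was 0.0455, -0.506 and -0.571 in WT mice 1 to 3 and 0.0589, 0.526 and 0.528 in m-/p+ mice 1 to 3. The transcripts of the family are rich in GC, with 61.4% in *Asic4*, 59.8% in *Asic2*, 58.3% in *Asic1* and 57.5% in *Asic3*, which are the 97.6, 94.8, 90.9 and 88.3 percentiles of those genes. The mice numbered 1 of both genotypes had nearly the same relation to GC content, and between them *Asic4* was at 5.65 and 12.6 CPM, *Asic1* at 33.1 and 34.7 CPM and *Asic2* at 61.6 and 57.1 CPM. These are single mice of each genotype, and the part of the GC relation in the values of *Asic4* was not tested beyond the correction.

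After each library was corrected for GC content and transcript length, *Asic4* was at 5.57, 4.68 and 7.14 CPM in WT mice 1 to 3 and 12.4, 9.40 and 10.2 CPM in m-/p+ mice 1 to 3. The groups did not overlap, and the log2 fold change was 0.89 (SE 0.20), which remains a description of the value that chose the family. For *Asic1* the corrected log2 fold change was -0.02 (SE 0.10), with 36.3 ± 2.90 CPM (SD, n = 3) in WT and 35.6 ± 2.04 CPM (SD, n = 3) in m-/p+ mice. For *Asic2* it was -0.09 (SE 0.09), with 65.0 ± 4.76 CPM (SD, n = 3) and 61.1 ± 5.75 CPM (SD, n = 3). The small differences of *Asic1* and *Asic2* therefore had opposite signs before and after the correction, and neither was called in either fit.

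**Figure D3:**
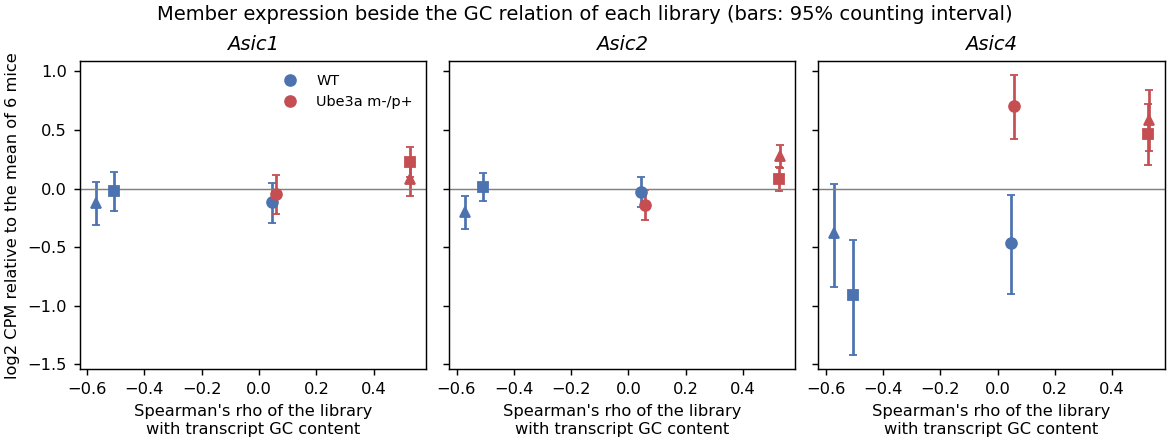
Level of *Asic1*, *Asic2* and *Asic4* in each library (vertical axis, log2 CPM relative to the mean of the 6 mice, bars for the exact Poisson 95% counting interval) against Spearman's rho of that library with transcript GC content (horizontal axis). The WT and m-/p+ mice numbered 1 share a rho near 0 (0.0455 and 0.0589), and the other 4 mice lie to the left (WT) and to the right (m-/p+).

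**Figure D4:**
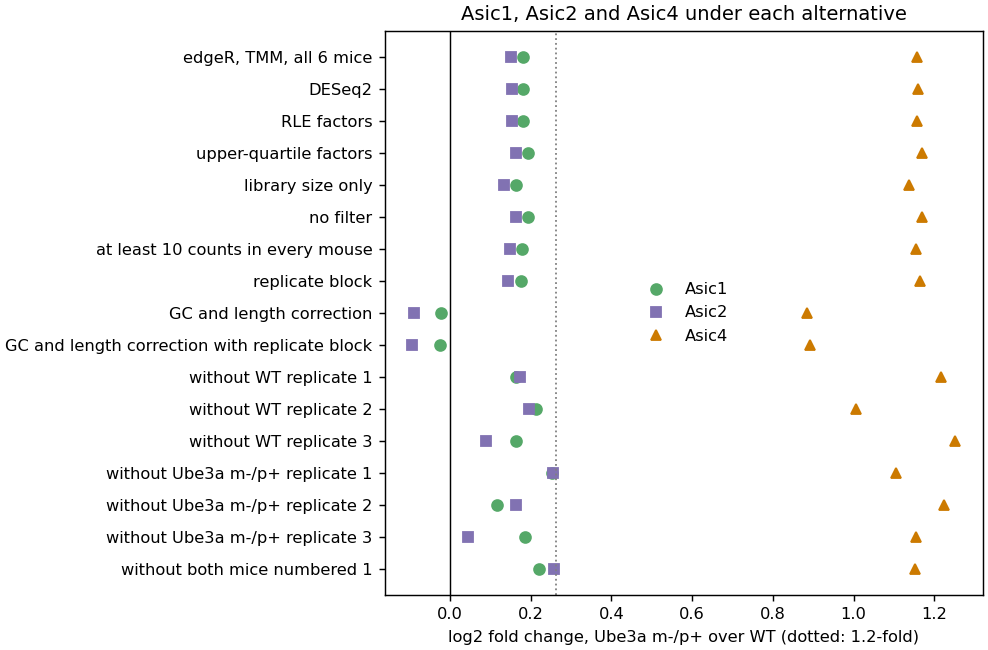
Log2 fold change (Ube3a m-/p+ over WT) of *Asic1*, *Asic2* and *Asic4* in the edgeR fit with all 6 mice and under each alternative setting, with a dotted line at 1.2-fold. *Asic4* stays between 0.89 and 1.25 in all settings, while *Asic1* and *Asic2* lie near 0 and turn negative under the GC and length correction.

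The rest of the ENaC/degenerin family held a single gene with enough counts to test. *Asic5*, a bile-acid-sensitive relative, had 0 counts in all 6 mice, which allows a level of up to 0.0545 CPM (3 counts over the 55164134 gene counts of the 6 libraries). Of the 3 other genes of this list, the epithelial sodium channel subunits, *Scnn1a* alone was tested, at 8.64 ± 1.79 CPM (SD, n = 3) in WT and 10.8 ± 0.648 CPM (SD, n = 3) in m-/p+ mice. Its log2 fold change was 0.33 (SE 0.18, adjusted p = 0.273, edgeR), and the groups overlapped.

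Of 18 genes for reported binding partners and modulators of the channels, 16 were tested, 11 were higher and 5 lower in m-/p+ mice, and 0 were called by edgeR or DESeq2 (3 at an unadjusted p below 0.05 by either). Their median log2 fold change was 0.09, against 0.0025 for all tested genes and 2.01% of these called. The largest rise was in *Npff*, the precursor of the FF neuropeptides that slow the closing of ASICs, at 0.67 (SE 0.43, adjusted p = 0.347, edgeR). The largest fall was in *Stom*, a membrane protein that binds ASICs and can lower their current, at -0.45 (SE 0.18, adjusted p = 0.136, edgeR). When WT mouse 1 was left out, edgeR called 2 genes of this list, among 2582 genes called in all, so these calls do not set the list apart.

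Of 18 genes for other proton-sensing receptors and channels, 9 were tested, 8 were higher and 1 lower, and 0 were called by edgeR or DESeq2 (0 and 1 at an unadjusted p below 0.05). Their median log2 fold change was 0.16, and 0.02 after the GC and length correction. The largest rise was in *Trpv4*, a cation channel of the TRP family, at 0.48 (SE 0.92, adjusted p = 0.795, edgeR), with 3.65, 1.72 and 12.9 CPM in WT mice 1 to 3 and 10.3, 11.5 and 2.99 CPM in m-/p+ mice 1 to 3. *Ttr*, the main choroid plexus transcript, was highest in the same 3 libraries, at 521, 58.6 and 1966 CPM in WT mice and 2053, 1446 and 64.0 CPM in m-/p+ mice, and its part in the values of *Trpv4* was not tested. The only fall was in *Kcnk2*, an acid-modulated potassium leak channel, at -0.10 (SE 0.10, adjusted p = 0.591, edgeR).

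The genes that set the acidity of cells and of the fluid around them held all the calls of the 4 related lists, of which theirs was the longest. Of 40 genes for acid and base transporters and carbonic anhydrases, 32 were tested, 15 were higher and 17 lower, and 4 (12.5%, against 2.01% of all tested genes) were called, 1 higher and 3 lower. Their median log2 fold change was -0.03. The list was chosen with earlier results of these data known, so its share of calls is a description and no test.

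*Slc9a5*, a sodium/proton exchanger, had 24.4, 20.01 and 17.6 CPM in WT mice 1 to 3 and 31.8, 31.7 and 30.4 CPM in m-/p+ mice 1 to 3. It rose by a log2 fold change of 0.60 (SE 0.13, adjusted p = 0.0363, edgeR), without overlap of the groups. *Slc4a4*, the sodium bicarbonate cotransporter of astrocytes, had 227, 246 and 254 CPM in WT mice and 205, 182 and 156 CPM in m-/p+ mice. All m-/p+ mice were below all WT mice, and the log2 fold change was -0.42 (SE 0.10, adjusted p = 0.0408, edgeR).

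*Slc4a7*, another sodium bicarbonate cotransporter, had 68.2, 69.7 and 79.9 CPM in WT mice 1 to 3 and 57.7, 47.5 and 52.9 CPM in m-/p+ mice 1 to 3, with a log2 fold change of -0.46 (SE 0.10, adjusted p = 0.0387, edgeR). *Slc16a7*, the proton-linked lactate and pyruvate carrier of neurons, had 46.8, 57.7 and 58.5 CPM in WT mice and 43.6, 32.4 and 39.0 CPM in m-/p+ mice, with a log2 fold change of -0.51 (SE 0.12, adjusted p = 0.0466, edgeR). Neither showed overlap of the groups. All 290 called genes were without overlap, as were 3589 of all tested genes, so this adds nothing to the calls of these genes. Of the same-numbered mice, those numbered 1 lay closest to each other in *Slc9a5*, *Slc4a4*, *Slc4a7* and *Slc16a7*.

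After the GC and length correction, *Slc4a4* was called (log2 fold change -0.29, adjusted p = 0.0356, edgeR), while *Slc9a5* (0.45, adjusted p = 0.0638), *Slc4a7* (-0.21, adjusted p = 0.274) and *Slc16a7* (-0.14, adjusted p = 0.559) were not. *Slc9a7*, an exchanger of the trans-Golgi network chosen after its values were seen, was called by edgeR after the correction (-0.41, adjusted p = 0.0334) and not before it (-0.36, adjusted p = 0.0632), and by DESeq2 without it (-0.36, adjusted p = 0.0371). No gene of this list was called by edgeR without WT mouse 2, WT mouse 3, m-/p+ mouse 2 or m-/p+ mouse 3 (7, 8, 8 and 8 at an unadjusted p below 0.05). At that p these fits held 2075, 2159, 2128 and 2429 genes of the whole table. Without WT mouse 1 there were 8 called, among 2582 genes called in all. Without m-/p+ mouse 1 there were 6, among 1816 called in all.

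The largest log2 fold change of the list that was not called belonged to *Car9*, a carbonic anhydrase on the outer face of the cell, at 1.28 (SE 0.45, adjusted p = 0.105, edgeR), from 6, 3 and 7 counts in WT mice and 15, 17 and 17 counts in m-/p+ mice. *Car8*, a carbonic anhydrase relative without enzyme activity, was lowest at -0.66 (SE 0.39, adjusted p = 0.313, edgeR), with overlapping groups.

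**Figure D5:**
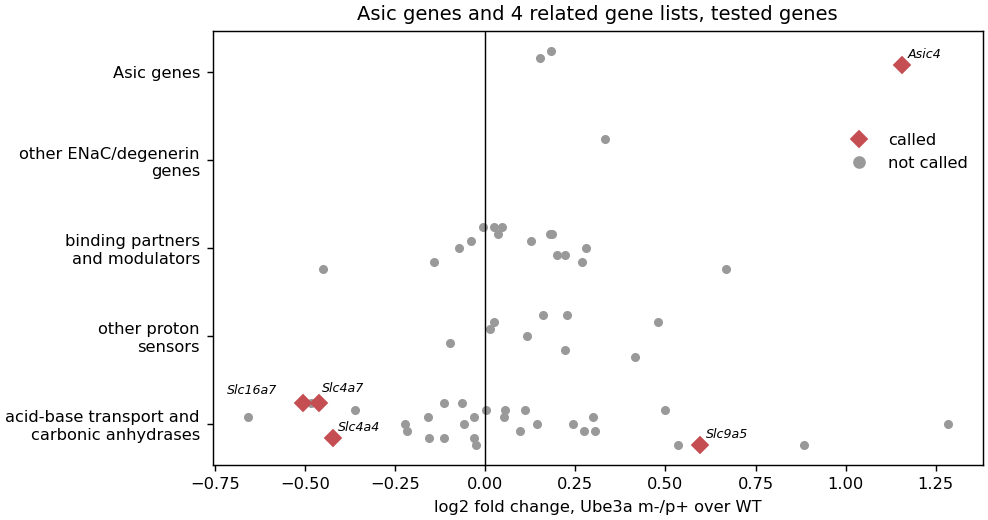
Log2 fold change (Ube3a m-/p+ over WT, horizontal axis) of the tested *Asic* genes and of the tested genes of the 4 related lists (rows, with points spread vertically only to keep them apart), called genes in red. *Asic4* lies apart from *Asic1* and *Asic2*, at 1.16, and *Car9*, which was not called, lies farther out at 1.28. The 4 other called genes are all acid or base transporters, *Slc9a5* at 0.60 and *Slc4a4*, *Slc4a7* and *Slc16a7* between -0.51 and -0.42.

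Genes beside the family members were examined for differences of the same direction. Within 100 kb of a member, 26 genes were tested, 23 were higher in m-/p+ mice, and 15 after the GC and length correction. Of these 26 genes 0 were called by edgeR, 3 were called by DESeq2 (which called 6.58% of all tested genes), and 10 had an unadjusted p below 0.05 in edgeR, where 24.6% of all tested genes did. Around *Asic4* all 9 tested genes had log2 fold changes above 0, from 0.04 to 0.51, and 6 of the 9 after the correction, which put *Inha*, a subunit of inhibin, lowest at -0.26. The nearest, *Chpf*, a chondroitin polymerizing factor, lies 226 bp away on the opposite strand and had 100 ± 12.1 CPM (SD, n = 3) in WT and 123 ± 7.81 CPM (SD, n = 3) in m-/p+ mice (log2 fold change 0.30, SE 0.10, adjusted p = 0.0896, edgeR). *Obsl1*, a cytoskeletal adaptor 4967 bp away, was the farthest from 0 of these, at 0.51 (SE 0.14, adjusted p = 0.0554, edgeR). After the GC and length correction *Chpf* was at 0.10 and *Obsl1* at 0.25, against 0.89 for *Asic4*.

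Around *Asic1*, 6 of 7 tested genes were higher, from -0.01 to 0.48, with *Cox14* (cytochrome oxidase assembly) at the upper end, and 4 of 7 after the correction. Around *Asic3*, 8 of 9 were higher, from -0.07 to 0.56, and 5 of 9 after the correction, and *Cdk5*, a kinase 406 bp away, was at 0.06. *Tmem98* was the single tested gene near *Asic2* and was at -0.06. A gene model of unknown kind, *Gm37264*, overlaps exons of *Asic4* by 493 bp on the opposite strand. Whether the authors' counting separated strands is not given in the sources used here, so that reads from this model, if any, could not be told from those of *Asic4*.

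The study concerns retinoic acid signalling, and retinoic acid receptors bind pairs of short DNA motifs. RefSeq promoter windows of 300 bases (GRCm38.p6) were at hand for *Asic1*, *Asic2* (a pair of windows) and *Asic3*. They were searched on both strands for the motif AGGTCA, the variant GGGTCA with another base at the start, the variant AGTTCA with another base inside, and GGTTCA, which has both changes. A single match was found in these 4 windows, in *Asic1* at chr15:99691975-99692004 on the plus strand, shown with the motif in capitals because it is the only one: gggcagcaactgAGGTCAtcctggcagtga. Of all 32851 promoter windows of this length, 43.7% held at least 1 of these motifs.

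For each tested member, the genes with the most similar pattern over the 6 mice were found by Pearson's r of log2 CPM, as a description. They were *Mafa* (0.995), *Zfp395* (0.995) and *Pex16* (0.992) for *Asic4*, *Crtac1* (0.993), *Nnat* (0.992) and *Zfp112* (0.992) for *Asic1*, and *Mybbp1a* (0.993), *Rhbdl3* (0.988) and *Chst2* (0.987) for *Asic2*. With 6 mice such values are common, and 50, 36 and 46 genes had an r above 0.95 with *Asic4*, *Asic1* and *Asic2*. Since *Asic4* was chosen for its difference between the genotypes, genes picked for likeness to it differ in the same way by construction. *Pex16*, a peroxisome assembly factor, had 16.1 ± 1.76 CPM (SD, n = 3) in WT and 23.1 ± 0.247 CPM (SD, n = 3) in m-/p+ mice (log2 fold change 0.53, SE 0.13). *Mafa*, a transcription factor, was at 4.94 ± 0.414 CPM (SD, n = 3) and 7.32 ± 0.121 CPM (SD, n = 3) (log2 fold change 0.57, SE 0.20).

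Markers of the cells that the dissected tissue could hold were compared beside *Asic4*. The summed CPM of 8 interneuron markers was 660 to 676 in WT mice against 613 to 630 in m-/p+ mice. Of these markers 5 were higher, 3 lower and 0 called by edgeR (3 at an unadjusted p below 0.05, and 1 called by DESeq2). Of all tested genes edgeR called 2.01%, DESeq2 called 6.58%, and 24.6% had an unadjusted p below 0.05 in edgeR. The summed CPM of 4 markers of oligodendrocyte precursors ran from 194 to 217 and from 181 to 190, with 1 higher, 3 lower and *Pdgfra*, their growth factor receptor, called lower (log2 fold change -0.43, SE 0.10, adjusted p = 0.0466, edgeR). Sums without overlap and lower in m-/p+ mice were also found for neurons (4162 to 4343 against 3839 to 4054), dentate granule cells (450 to 463 against 413 to 435), oligodendrocytes (7452 to 7634 against 6261 to 7184) and microglia (252 to 257 against 239 to 243). Such sums follow the most abundant markers. Single neuron markers were split, with 3 higher and 2 lower and a median log2 fold change of 0.02. In each of the other lists 2 were higher and 3 lower.

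The 8 markers of meninges and fibroblasts had log2 fold changes above 0, from 0.02 in *Lum* to 1.49 in *Igfbp6*. Of these, edgeR called *Col1a1* and *Igfbp6* (2 of 8, against 2.01% of all tested genes), and after the GC and length correction *Igfbp6* alone, and DESeq2 called 1, and their summed CPM ran from 91.9 to 148 in WT and from 104 to 186 in m-/p+ mice. All 5 choroid plexus markers were higher and 0 were called by edgeR or DESeq2 (0 at an unadjusted p below 0.05), with sums from 99.1 to 2147 in WT and from 106 to 2264 CPM in m-/p+ mice. Markers that define the hippocampus were present in every mouse, with CA pyramidal cell sums of 563 to 624 CPM in WT and 489 to 616 CPM in m-/p+ mice. For thalamus and striatum the sums were 68.6 to 77.4 and 59.3 to 70.0 CPM. Of the 7 genes of that list 1 was called, *Rora*, which was lower (log2 fold change -0.62, SE 0.14, adjusted p = 0.0387, edgeR). None of the markers was at 0 in all mice, and the part of any of these cells in the values of *Asic4* was not tested.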

How the data were processed

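RNA sequencing was done on 6 hippocampi, 3 per genotype. The authors deposited raw counts per gene symbol for each mouse, without normalization or pooling. The submitters' processing notes name STAR 2.7.4a, HTSeq and mm10; the annotation and the strand setting are not given in the sources used here. The 5 summary lines per library (reads on no feature were 54.1% to 55.0%, multiple alignments 3.71% to 5.77%) were left out, so that 39.0% to 41.8% of reads entered. Library size limits precision for low genes such as *Asic3*.

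In R 4.3.3, genes were filtered by filterByExpr, scaled by TMM and tested by edgeR 4.0.16 (robust quasi-likelihood F test, two-sided, genotype as the only factor, Benjamini-Hochberg over 14445 genes). The biological coefficient of variation was 0.102. Alternatives were DESeq2 1.42.0, other scaling and filters, a replicate block, leaving out mice, and a correction by natural splines (5 degrees of freedom each, for GC content and for length, taken from the longest transcript in GENCODE M21). Coding sequences were aligned with mafft 7.526. Steps were tested on simulated data, with 200 genes changed 2-fold. Without a GC gradient between libraries, edgeR made 10 false calls, DESeq2 7 and the GC-corrected fit 11. With a GC gradient between libraries, edgeR made 283 false calls, DESeq2 205 and the GC-corrected fit 11. This gradient was linear, with a size set by hand, and ran with genotype in part of the libraries. The correction can remove a gradient of this form, and these counts cannot be set against the calls in the 6 mice. How many calls of the uncorrected fits to the 6 mice were false in this way was not tested. Log2 CPM for likeness used a prior count of 2.

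The members and all gene lists were chosen with earlier results of these data known. Named were the members, *Ube3a*, called genes and the largest rise and fall of each of 4 lists, tested genes within 100 kb of a member, and the 3 genes most like each tested member; *Asic5*, *Ttr* and the markers named were chosen after their values were seen. All 40 genes of the acid and base list, 18 of the partner list and 17 of the 18 proton sensors (19 symbols, since *Pacc1* stood there under its older symbol too) were in the counts, and *Kcnk17* was not analysed here. The paper gives 3 mice per genotype, so replicates are taken as separate mice. The p-values of edgeR and DESeq2 therefore rest on variation between mice. A further sequence match within the family is not reported here.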

Additional observations from a re-analysis of the deposited data

How the results depend on the processing

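*Asic4* had a log2 fold change above 0 in all 16 alternatives, from 0.89 to 1.25, and kept its call in 10. The labels number the mice 1 to 3 in each genotype, and same-numbered mice did not deviate together (correlations of -0.285, -0.177 and -0.311). These values cannot decide whether the numbers pair the mice, because the GC relation ran with genotype in mice 2 and 3. The mice numbered 1 were alike in it (rho of 0.0455 in WT and 0.0589 in m-/p+). With the replicate number as a block, *Asic4* was at 1.17 and not called, 0 genes were called in all (2422 at an unadjusted p below 0.05), and 0 members and 0 acid and base genes were among them. The correction for GC content and length left 92 calls, 2 of them acid and base genes, and gave *Asic1* -0.023 and *Asic2* -0.088. Correction and block together left 13 calls, 0 of them members or acid and base genes, with *Asic4* at 0.89 and not called, *Asic1* at -0.025 and *Asic2* at -0.093.

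Over all genes, DESeq2 called 951, the fit without a filter 1176, the fit without both mice numbered 1 4138 and an unadjusted p below 0.05 with the fold threshold 2832. Leaving out 1 mouse gave 0 to 2582 calls, 0 to 1 members called, 0 to 2 partners, 0 to 8 acid and base genes and an *Asic4* value of 1.01 to 1.25. Without both mice numbered 1 there were 4 partners and 10 acid and base genes called, and at the unadjusted p 2 and 9. For the order of levels, 5 mice cannot give an exact permutation p below 0.0625, and the log2 steps were 1.03 to 1.10, 1.40 to 1.73 and 3.28 to 3.83. The causes were not tested. Depth kept *Asic3* out of every fit with a filter.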

Other observations

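Without the filter on low counts, *Asic3* had a log2 fold change of 0.39 (SE 0.66), and its 95% counting interval in Ube3a m-/p+ mouse 2 ran from 0.812 to 2.31 CPM, which meets that of WT mouse 1 (0.406 to 1.85 CPM).

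*Slc4a5*, an electrogenic sodium bicarbonate cotransporter chosen after its values were seen, had 4.0, 0.460 and 15.3 CPM in WT mice 1, 2 and 3 and 19.4, 15.5 and 0.676 CPM in Ube3a m-/p+ mice 1, 2 and 3. The 3 libraries with the most *Slc4a5* were also the 3 with the most *Ttr*.

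The promoter windows of *Asic1*, *Asic2* and *Asic3* held 7, 16, 9 and 7 CpG dinucleotides (*Asic2* has a pair of windows), against a median of 7 over all windows, and had a GC content of 59.7%, 65.3%, 49.7% and 62.0%, against a median of 52.7%.

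Other genes lie inside the introns of *Asic2*, none of them overlapping its exons. One of them, *5530401A14Rik*, is protein coding and had 0 to 1 counts per mouse.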
